A study of Homo sapiens with 5 samples.

Results

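The 40 genes described here encode the glucose and lactate transporters, the enzymes and the regulators of glycolysis, other targets of the hypoxia-inducible factors (HIF), and the HIF alpha subunits themselves. They were taken by symbol from the 25382 genes of the raw count table, all 40 were found, and all 40 were among the 13297 genes with enough reads to be tested. They were divided by role into 3 transporters, 17 glycolytic enzymes, 3 glycolytic regulators, 15 other HIF targets and 2 HIF alpha subunits. The cells were MDA-MB231, a human line from a breast cancer that lacks hormone receptors and has a mesenchymal form, grown in DMEM with fetal bovine serum and an antibiotic/antimycotic. Shear stress applied to a mixed population separated weakly adherent cells (3 libraries, dated 6, 12 and 15 March) from strongly adherent cells (2 libraries, dated 6 and 15 March), with no other treatment or genetic change named. Since the cells met that shear before RNA was taken, its own effect and differences present beforehand cannot be told apart. Whether the samples were separate cultures, and what the dates mark, is not stated. The p-values set the difference between groups against the variation between these libraries only, and some of that variation may be technical. The tests pool that variation in part over genes, so a p-value does not rest on a gene's own spread alone.

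Glycolysis turns glucose into pyruvate in the cytosol, and many tumour lines send most of that pyruvate on to lactate even when oxygen is present. HIF is a dimer of an alpha subunit and ARNT. With oxygen at hand, prolyl hydroxylases of the EGLN family mark the alpha subunit, VHL binds it and it is degraded. When oxygen is short, the alpha subunit accumulates as a protein and enters the nucleus. There it binds DNA at the letters ACGTG or GCGTG, switching on glucose uptake, glycolysis, vessel growth, collagen modification and mitochondrial turnover. Because this control acts on the protein, the RNA of HIF1A is not a measure of HIF activity.

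The letters ACGTG are 1 form of the core of the element that HIF binds. They lay near the start of glycolytic genes and of other HIF targets alike. In windows from 250 bases before to 50 after each annotated start (RefSeq, GRCh38.p14, both strands read, any overlap counted), 25 of the 66 windows of members held them (37.9%), against 21.4% of the 35116 windows of all genes. Counted by gene, 21 of 36 members had at least 1 window with the letters (58.3%), against 24.9% of the 27305 genes in the table, but members have more windows per gene. By role the letters were found for 11 of 17 glycolytic enzymes and for 7 of 12 other HIF targets. BNIP3L, NDRG1, SLC2A3 and VEGFA are not among the 36. Stretches of 5 members are shown so that a reader can compare these letters in enzymes and in other targets. The 5 were picked by name and not by a rule, and each stretch holds 2 to 4 matches, more than many other members have. Each lies before the annotated start, overlaps no exon in GENCODE 29, runs 5′ to 3′ on the gene's strand and has each match in capitals. A run of CACGTG is its own reverse complement and holds overlapping matches, 1 on each strand.
GAPDH (chr12:6535168-6535203, + strand): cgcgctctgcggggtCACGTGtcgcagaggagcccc
HK2 (chr2:74834961-74835041, + strand): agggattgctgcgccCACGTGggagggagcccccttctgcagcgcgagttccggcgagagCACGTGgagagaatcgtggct
PGK1 (chrX:78104031-78104084, + strand): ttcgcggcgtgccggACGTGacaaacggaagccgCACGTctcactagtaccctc
BNIP3 (chr10:131982037-131982072, - strand): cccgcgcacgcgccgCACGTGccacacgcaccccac
PLOD2 (chr3:146161311-146161399, - strand): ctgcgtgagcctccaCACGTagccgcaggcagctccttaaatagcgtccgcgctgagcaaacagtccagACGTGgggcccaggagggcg
Among the members whose windows did not hold ACGTG were HIF1A, EPAS1, ADM and KDM3A, and also SLC2A1, HK1, ENO1 and PKM. They may still hold GCGTG, the other form of the core. With either form counted, 33 of the 36 members had a match (91.7%), both HIF alpha subunits among them, against 52.4% of all genes. A match is a description of the sequence and not evidence of binding in these cells.

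Libraries held 19630386 to 21707459 reads assigned to genes. Of the markers of this line VIM was at 2458 to 2746 counts scaled to library size (CPM) and ESR1 and PGR at 0 reads in every library, and of the epithelial genes listed as low in this line CDH1 was at 1.2 to 2.1 CPM, ERBB3 at 3.09 to 4.32 CPM and EPCAM at 19.4 to 25.8 CPM. EPCAM was higher in every weakly adherent library (log2 fold change 0.22, edgeR adjusted p = 0.40). The other markers expected in this line were CD44 at 1471 to 1696, FSCN1 at 40.5 to 50.9, AXL at 1306 to 1521 and MSN at 1005 to 1114 CPM. VIM, CD44 and FSCN1 were lower in every weakly adherent library, and AXL and MSN overlapped. The log2 fold changes of VIM, CD44 and FSCN1 were -0.08, -0.14 and -0.23 (edgeR adjusted p = 0.76, 0.44 and 0.24). The leukocyte marker PTPRC was at 0.255 CPM or less, and CD3E was at 0 reads. Of the endothelial markers CDH5 and VWF were at or near 0, and PECAM1 was at 0.68 to 1.5 CPM. Of the fibroblast markers DCN was at 0 reads, PDGFRB was at 2.80 to 3.77 CPM and COL1A1 at 7.23 to 13.0 CPM. PECAM1 and COL1A1 were higher in every weakly adherent library (log2 fold changes 0.80 and 0.44, edgeR adjusted p = 0.27 and 0.23, or 0.13 and 0.014 with the date as a block). CD68, also a marker on the leukocyte list but expressed in many cell lines, was at 115 to 145 CPM. Of uniquely aligned reads, 7.96% and 8.89% fell outside genes for strongly adherent cells (6 and 15 March), and 9.02%, 8.97% and 9.85% in the weakly adherent ones of 6, 12 and 15 March. This share was higher in every weakly adherent library and, in both groups, on the later date. The part of this share and of these markers in the results below was not tested.

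Few of the 40 genes differed between weakly and strongly adherent cells. At an adjusted p under 0.05 (edgeR, quasi-likelihood test, Benjamini-Hochberg adjustment), VEGFA rose and ADM fell, and the other 38 did not pass. In bulk RNA, more cells that express a gene and more RNA per cell cannot be told apart. That is 1 member higher, where 1.77% of all tested genes were, and 1 lower, where 0.918% were (2.68% either way). At an unadjusted p under 0.05 there were 4 members (VEGFA, ADM, KDM3A and HK1), where 14.2% of all tested genes lay under it. The median log2 fold change of the members, weakly minus strongly adherent, was -0.04, beside -0.0005 for all genes tested. The median size of a change, without its sign, was 0.09 on the log2 scale for the members and 0.10 for all genes. With the shared date as a block, KDM3A also rose and PLOD2 also fell, which gives 2 members higher and 2 lower, beside 6.20% and 5.28% of all genes (11.5% either way). That fit compares the libraries within 6 and within 15 March, gives the library of 12 March no weight and leaves 1 residual degree of freedom. Its p-values, here and for the dates below, therefore rest largely on variation pooled over genes. They say little about how far a gene's own pairs differ. Fold changes also varied with coding length, and after correction for coding length, a fit that removes that trend over all genes, 1 member was higher (VEGFA) and 0 lower, beside 0.880% and 0.978% of all genes (1.86% either way). Block and correction together gave 2 higher and 2 lower, beside 4.53% and 5.30% (9.84% either way). In 11 of the 40 genes the ranges of the groups were apart, 4 with the weakly adherent libraries above and 7 with them below, where 30.0% of all tested genes had no overlap.

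**Figure D1:**
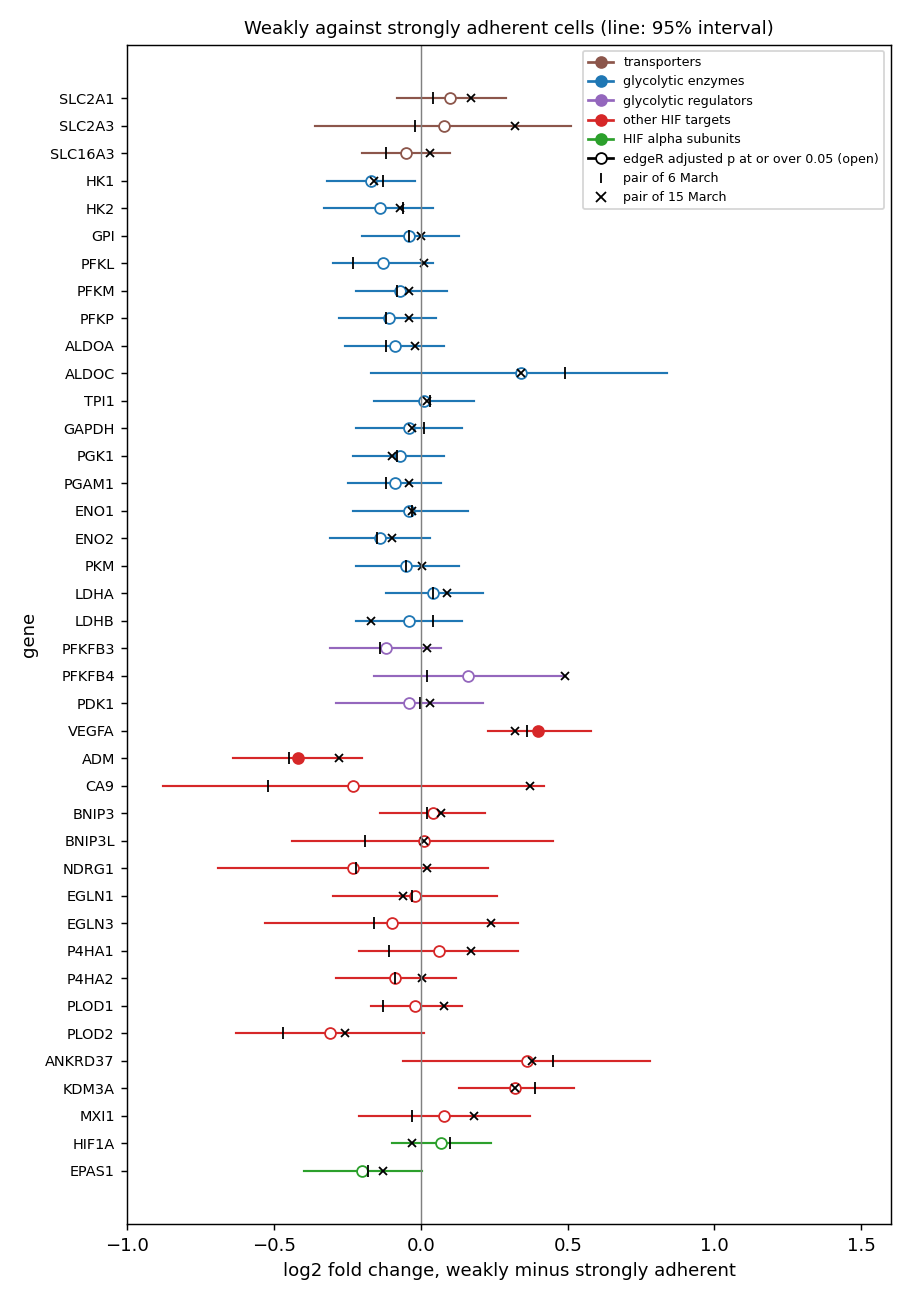
Log2 fold change of each gene, weakly minus strongly adherent, with its 95% interval (line, edgeR, 5 libraries), coloured by role. A filled circle has an adjusted p under 0.05, a bar marks the pair of 6 March and a cross the pair of 15 March. VEGFA and ADM are the filled circles, at 0.40 and -0.42, and the glycolytic enzymes other than ALDOC lie between -0.17 and 0.04.

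The transporters did not pass the test. SLC2A1, the main glucose transporter of cultured tumour cells, was at 1106 and 943 CPM in the strongly adherent libraries of 6 and 15 March. Its weakly adherent libraries of 6, 12 and 15 March were at 1135, 1108 and 1061 CPM. They spanned the higher of the strongly adherent values, and the log2 fold change was 0.10 (95% interval -0.08 to 0.29, edgeR adjusted p = 0.69). SLC16A3, which exports lactate, was at 439 and 429 CPM in strongly and 405, 417 and 437 CPM in weakly adherent cells, a log2 fold change of -0.05 (-0.20 to 0.10). SLC2A3, a glucose transporter of high affinity, stood out in 1 library: it was at 46.9 CPM in the weakly adherent library of 15 March and at 31.5 to 37.5 CPM in the other 4. Its near-identical copy SLC2A14 may take reads from it.

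None of the 17 glycolytic enzymes passed the test with edgeR, DESeq2 or limma-voom, and with each of these tools 1 of them had an unadjusted p under 0.05 (HK1 in edgeR). Their log2 fold changes were small and mostly negative, 14 of 17 (82.4%, beside 50.2% of all genes tested), with a median of -0.07. Apart from ALDOC, the 95% intervals lay between -0.33 and 0.21. Leaving out single libraries or correcting for coding length gave 12 to 15 negative values. HK1, the hexokinase of most tissues, which traps glucose as its phosphate, was at 319.9 and 328 CPM in strongly adherent cells and at 293, 276 and 293 CPM in weakly adherent cells. All 3 weakly adherent libraries lay below both strongly adherent ones, and the log2 fold change was -0.17 (SE 0.07, edgeR adjusted p = 0.26, or 0.14 with the date block). HK2, the hexokinase that HIF and growth signals induce, was at 139 and 135 CPM in strongly and 133, 110 and 129 CPM in weakly adherent cells. Here too the groups did not overlap, but the difference did not pass the test (log2 fold change -0.14, SE 0.09, edgeR adjusted p = 0.53).

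Further down the pathway values were as small. The phosphofructokinase chains PFKL, PFKM and PFKP, which carry out the committed step, had log2 fold changes of -0.13, -0.07 and -0.11. GPI, which precedes them, was at -0.04. The aldolase ALDOA, which splits the sugar, was at 1167 and 1055 CPM in strongly and 1076, 1017 and 1041 CPM in weakly adherent cells (log2 fold change -0.09, SE 0.08). Its libraries overlapped between the groups. ALDOC, the aldolase of brain, had the largest value of the 17 at 0.34, with an interval of -0.17 to 0.84 and only 33 to 48 reads per library. TPI1, which interconverts the products of aldolase, was at 0.01.

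The later steps hold the 4 members with the highest level per kilobase of exon. GAPDH, which makes the first NADH of the pathway, was at 4222 and 4086 CPM in strongly and 4265, 3841 and 4001 CPM in weakly adherent cells. These ranges overlapped, and the log2 fold change was -0.04 (95% interval -0.22 to 0.14). PGK1, which yields ATP, was lower in every weakly adherent library (806 and 823 against 764, 787 and 769.6 CPM), with a log2 fold change of -0.07 and an interval of -0.23 to 0.08. The mutase PGAM1 and the main enolase ENO1 were at -0.09 and -0.04. The neuronal enolase ENO2 was at 118 and 127 CPM in strongly and 106, 108.5 and 118 CPM in weakly adherent cells, and its groups met at 118 CPM (log2 fold change -0.14, SE 0.08). PKM, the pyruvate kinase, was at -0.05, and gene counts do not separate its splice forms. LDHA, which turns pyruvate into lactate, was at 1982 and 1909 CPM in strongly and 2042, 1942 and 2031 CPM in weakly adherent cells (log2 fold change 0.04, interval -0.12 to 0.21). LDHB, which favours the reverse reaction, was at -0.04. Several of these genes, among them GAPDH and PGAM1, have processed pseudogenes, and reads that match more than 1 place may be missing from their counts.

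Of the 17 enzymes, 5 lay lower in all weakly adherent libraries than in both strongly adherent ones (HK1, HK2, PFKM, PGK1 and PGAM1), where 14.5% of all tested genes did, and 1 lay higher (ALDOC), where 15.5% did. Their summed reads made up 1.82% and 1.76% of all gene counts in the strongly adherent libraries of 6 and 15 March. For weakly adherent cells (6, 12 and 15 March) it was 1.78%, 1.69% and 1.74%, and the groups overlapped. The 95% Wilson interval of each share, which covers counting error only, reaches at most 0.0057 percentage points to either side, far less than these differences. Per kilobase of annotated exon, GAPDH, ENO1, PKM and LDHA were the most abundant members at 1836, 1423, 1010.5 and 667 CPM per kb, and CA9 the least at 0.821.

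The 3 regulators of glycolysis did not pass with edgeR, DESeq2 or limma-voom, and none had an unadjusted p under 0.05 with these tools without the date block. With the block 0 passed in edgeR and 1, PFKFB4, had an unadjusted p under 0.05 (log2 fold change 0.26, SE 0.11, edgeR adjusted p = 0.095). PFKFB3, which makes the activator of phosphofructokinase, was at 79.9 and 73.7 CPM in strongly and 72.4, 64.1 and 75.0 CPM in weakly adherent cells, which gave -0.12 on the log2 scale (SE 0.09, edgeR adjusted p = 0.62). PFKFB4, its HIF-induced relative, was at 16.6 and 15.7 CPM in strongly and 16.8, 15.3 and 22.1 CPM in weakly adherent cells. Its highest value was that of the weakly adherent library of 15 March, and the log2 fold change was 0.16 (interval -0.16 to 0.49). PDK1, which inactivates pyruvate dehydrogenase, was at 23.3 and 27.2 CPM in strongly and 23.3, 22.7 and 27.7 CPM in weakly adherent cells. Its level was 23.3 CPM in each group on 6 March and over 27 in each on 15 March, with the library of 12 March the lowest. The comparison of dates given below did not call it (log2 difference 0.23, edgeR adjusted p = 0.096).

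Among the other HIF targets, VEGFA rose. It encodes the growth factor that draws in blood vessels and also acts on tumour cells. VEGFA was at 306 and 324 CPM in the strongly adherent libraries of 6 and 15 March. Weakly adherent cells had it on 6, 12 and 15 March at 392, 452 and 406 CPM. Every weakly adherent library lay above both strongly adherent ones, and on each shared date the difference had the same size, 0.36 on 6 March and 0.32 on 15 March on the log2 scale. The means were 315 ± 13.2 CPM (SD, n = 2) and 417 ± 31.1 CPM (SD, n = 3), a 1.32-fold difference (log2 fold change 0.40, SE 0.08, edgeR adjusted p = 0.019, or 4.1e-06 with the date block). Leaving out a library ended the call in 3 cases: strongly adherent 6 March (edgeR adjusted p = 0.21), strongly adherent 15 March (0.067) and weakly adherent 12 March (0.095). After correction for coding length the value was 0.44 (edgeR adjusted p = 0.011).

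ADM moved the other way. It encodes adrenomedullin, a peptide that dilates vessels and is strongly induced by hypoxia in many cells. ADM was at 28.6 and 27.9 CPM in strongly adherent cells and at 21.0, 19.3 and 22.9 CPM in weakly adherent cells. The groups did not overlap, and the log2 fold change was -0.42 (SE 0.10, 1.34-fold, edgeR adjusted p = 0.047, or 0.0024 with the date block). This call lay just under the threshold: it ended with any 1 of the 5 libraries left out (edgeR adjusted p from 0.057 to 0.25) and after correction for coding length (0.055). The log2 fold change itself stayed between -0.48 and -0.37 with a library left out and was -0.41 after that correction, and with block and correction together ADM passed (-0.34, edgeR adjusted p = 0.0065). In both shared dates ADM was lower in the weakly adherent library, by -0.45 and -0.28 on the log2 scale.

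KDM3A and PLOD2 passed with the date as a block and not without it. KDM3A, a histone demethylase that HIF induces, was at 41.9 and 47.2 CPM in strongly and 54.9, 53.3 and 59.0 CPM in weakly adherent cells. Again the groups did not overlap, and the log2 fold change was 0.32 (SE 0.09, edgeR adjusted p = 0.087), or 0.35 with the date block (edgeR adjusted p = 0.00012). After correction for coding length, without the block, it was 0.25 (edgeR adjusted p = 0.21), and with no filter on low counts the adjusted p was 0.041. PLOD2, a lysyl hydroxylase that prepares collagen for cross-linking, was at 76.7 and 91.6 CPM in strongly and 55.5, 71.5 and 76.6 CPM in weakly adherent cells. Its highest weakly adherent value came close to its lowest strongly adherent one, and the log2 fold change was -0.31 (SE 0.14, edgeR adjusted p = 0.37). Within dates the differences were -0.47 and -0.26, and the date block gave -0.36 (SE 0.07, edgeR adjusted p = 1.7e-05). Its PLOD1 relative was at -0.02, and the prolyl hydroxylases of collagen P4HA1 and P4HA2 were at 0.06 and -0.09, all 3 without a call in either fit.

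**Figure D2:**
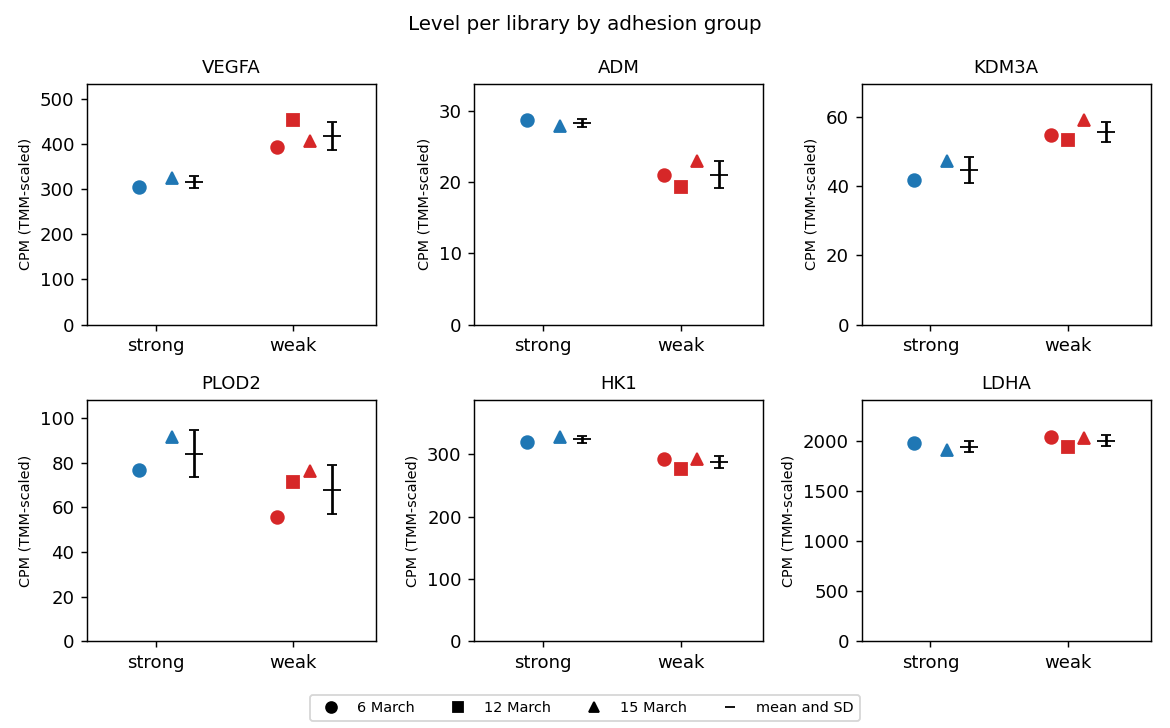
Level (TMM-scaled CPM, axis from 0) of 6 genes in each library, by adhesion group and, by symbol, date, with the group's mean and SD beside the points. The 3 weakly adherent values lie above both strongly adherent ones for VEGFA and KDM3A and below them for ADM, PLOD2 and HK1, while those of LDHA overlap.

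The remaining targets did not pass in either fit. CA9, the surface carbonic anhydrase that is nearly silent without HIF, had 39 and 24 reads in the strongly adherent libraries of 6 and 15 March and 27, 20 and 31 in the weakly adherent ones, or 1.02 to 1.84 CPM. At this depth its interval ran from -0.88 to 0.42. NDRG1, a stress gene much used as a hypoxia marker, was at 169 and 200.0 CPM in strongly and 145, 123 and 203 CPM in weakly adherent cells. Its lowest and its highest library were both weakly adherent (log2 fold change -0.23, SE 0.20). BNIP3 and BNIP3L, receptors for the removal of mitochondria, were at 0.04 and 0.01. The oxygen sensors EGLN1 and EGLN3, which HIF induces as feedback, were at -0.02 and -0.10, and MXI1, an antagonist of MYC, at 0.08. ANKRD37, a small target of HIF, was higher in every weakly adherent library (2.68 and 3.27 against 3.66, 3.52 and 4.27 CPM), but with 57 to 94 reads per library its log2 fold change of 0.36 did not pass (SE 0.20, edgeR adjusted p = 0.46). Of the 15 targets 7 had a positive and 8 a negative log2 fold change, and their median was -0.02. With the weakly adherent library of 15 March left out 3 were positive and 12 negative, and with the strongly adherent one of that date left out 9 and 6. In 3 of the 15 every weakly adherent library lay above both strongly adherent ones (VEGFA, KDM3A and ANKRD37), and in 2 below (ADM and PLOD2), beside the 15.5% and 14.5% of all genes given above. Their summed reads made up 0.124% and 0.139% of gene counts in the strongly adherent libraries of 6 and 15 March and 0.124%, 0.138% and 0.15% in the weakly adherent ones of 6, 12 and 15 March. The groups overlapped, and the weakly adherent library of 15 March was the highest.

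The HIF alpha subunits did not pass in either fit. HIF1A was at 418 and 464.5 CPM in strongly and 447, 492 and 454 CPM in weakly adherent cells, with a log2 fold change of 0.07 (interval -0.10 to 0.24). EPAS1, the alpha subunit with a narrower range of tissues, was at 69.8 and 78.3 CPM in strongly and 61.8, 60.4 and 71.5 CPM in weakly adherent cells. The groups overlapped by the library of 15 March alone, and the log2 fold change was -0.20 (SE 0.09, edgeR adjusted p = 0.36).

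**Figure D3:**
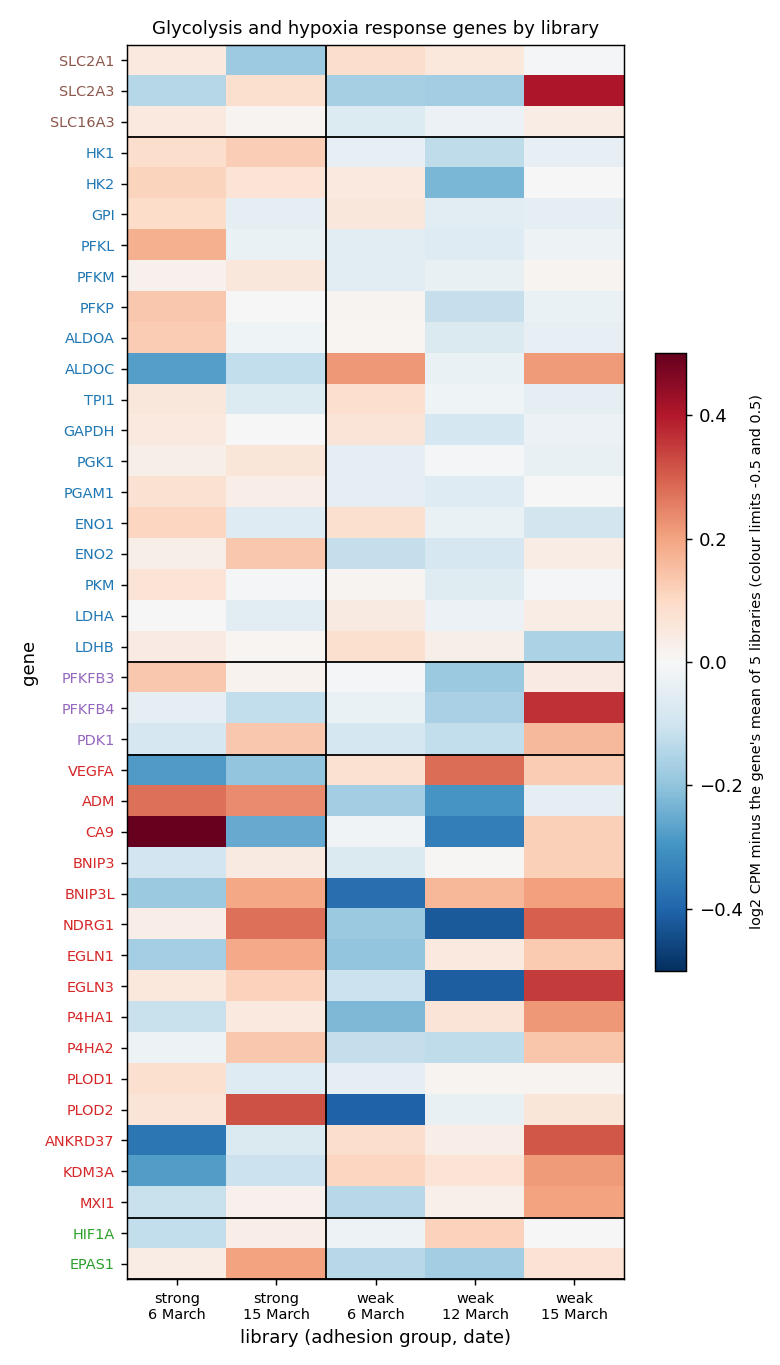
Log2 CPM of each of the 40 genes in each of the 5 libraries, minus the gene's mean, in colour from blue (lower) to red (higher), with genes grouped by role from transporters at the top to HIF alpha subunits at the bottom. VEGFA and KDM3A are blue in both strongly adherent libraries and red in the weakly adherent ones, ADM is the reverse, and BNIP3L, EGLN1 and MXI1 are bluer on 6 than on 15 March in both groups.

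Set beside each other, the glycolytic enzymes and the other HIF targets differed little in the size of their change between adhesion groups. The median size, without sign, was 0.07 for the enzymes and 0.10 for the other targets, beside 0.10 for all genes. With the date block it was 0.07 and 0.08, beside 0.11. Between 6 and 15 March it was 0.07 and 0.25, beside 0.12. The difference between the medians of both roles was -0.05 on the log2 scale, less than the pooled SD of 0.15 that the same difference has between libraries of a group. In the pair of 6 March the median log2 ratio of weakly over strongly adherent cells was -0.06 for the enzymes and -0.11 for the other targets, with 12 of 17 and 11 of 15 negative. In the pair of 15 March it was -0.03 and 0.08, with 11 of 17 and 3 of 15 negative. For all genes tested the medians were -0.01 and 0.01, with 6816 and 6364 of 13297 negative. The median of the enzymes was thus slightly negative on both dates, while that of the other targets changed sign. Between libraries of a group these medians have a pooled SD of 0.04 for the enzymes and 0.12 for the other targets. The enzymes' value of 15 March and both values of the other targets are smaller than that. Both dates had the same sign for 12 of 17 enzymes and for 7 of 15 other targets, beside 62.8% of all genes tested. With the strongly adherent library of 15 March left out, the median of the other targets was 0.12 and the difference -0.20.

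For 10 of the 15 other HIF targets (66.7%) the difference between dates was larger than that between adhesion groups in the same fit, beside 51.3% of all genes tested. Between 6 and 15 March 12 of the 15 had a higher value on the later date in both groups, where 33.8% of all tested genes did, and 0 had a lower one in both, where 31.1% did. A comparison of the dates with adhesion as a covariate, added after the data were seen and resting on the fit with 1 residual degree of freedom, called 6 of the 15 higher and 0 lower, beside 7.14% and 2.71% of all genes. These 6 were BNIP3L, NDRG1, EGLN1, PLOD2, P4HA1 and P4HA2. BNIP3L had the largest value: it was at 81.2 CPM on 6 March and 105 CPM on 15 March in strongly adherent cells, and at 71.1 and 106.5 CPM in weakly adherent cells. Its weakly adherent library of 12 March, at 103.5 CPM, was close to those of 15 March. The log2 difference between dates was 0.48 (SE 0.07, edgeR adjusted p = 1.5e-09), where that between adhesion groups in the same fit was -0.08. EGLN1 rose from 58.5 to 75.0 CPM in strongly and from 57.3 to 72.0 CPM in weakly adherent cells between these dates (log2 difference 0.34, edgeR adjusted p = 1.0e-04). NDRG1 rose by 0.36 (edgeR adjusted p = 3.5e-06), but its library of 12 March, at 123 CPM, was the lowest of all. PLOD2 and P4HA1 rose by 0.36 and 0.30, and P4HA2 by 0.21 (edgeR adjusted p = 0.032). VEGFA, ADM and KDM3A were not among them, at 0.07, 0.04 and 0.14.

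The glycolytic enzymes did not share this pattern. Of the 17, 10 had a lower value on 15 than on 6 March in both groups and 4 a higher one. Their log2 differences ran from -0.17 to 0.13, and 0 were called. With DESeq2 size factors in place of TMM scaling 10 were lower and 2 higher, while the other HIF targets stayed at 12 higher and 0 lower. At an unadjusted p under 0.05 the date comparison had 3 of them (ENO1, LDHB and TPI1, all lower on 15 March), where 22.7% of all genes lay under it. Among the transporters SLC2A3 was called higher on 15 March, by 0.40 (edgeR adjusted p = 1.0e-04). Over the 40 genes the difference between dates was larger than that between adhesion groups, in the same fit, for 24 (60%). What the dates stand for is not given, so culture, handling and library preparation cannot be told apart, and the reads outside genes described above were also higher on 15 March in both groups.

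**Figure D4:**
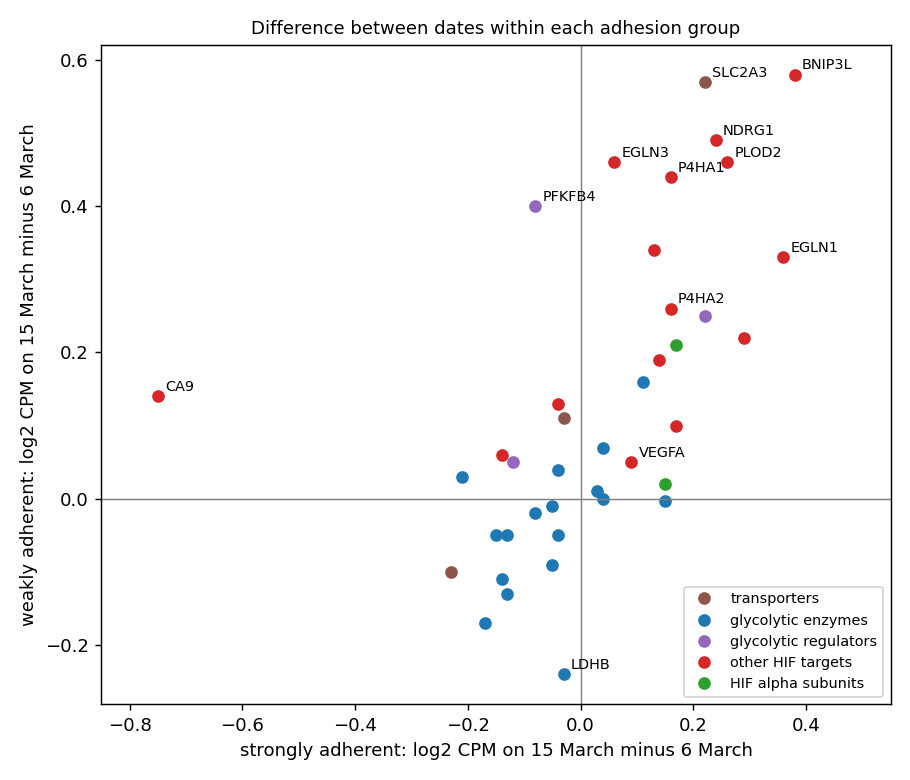
Difference in log2 CPM between 15 and 6 March in strongly (horizontal) and weakly adherent cells (vertical), 1 point per gene and 1 library per group and date, coloured by role. The other HIF targets lie mostly in the upper right, where 12 of 15 are higher on 15 March in both groups, and the glycolytic enzymes lie around 0 with 10 of 17 in the lower left.

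Genes next to these in the pathway were read from 5 further lists. Of 19 further genes of glycolysis and lactate transport 14 were tested, with a median log2 fold change of -0.0044, and 0 passed with edgeR, DESeq2 or limma-voom, with or without the date block in edgeR (1, PFKFB2, at an unadjusted edgeR p under 0.05 without it). The lactate transporter SLC16A1 was nearly silent at 0.318 to 0.591 CPM, while SLC16A3 was at 405 to 439 CPM. None of the 7 enzymes of the pentose phosphate pathway passed with these tools, 0 had an unadjusted p under 0.05 in edgeR, and all 7 had a negative log2 fold change, between -0.14 and -0.02. After correction for coding length 5 of the 7 were negative, and with the strongly adherent library of 6 March left out 3 were.

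The next list holds 13 genes of pyruvate import into mitochondria, pyruvate dehydrogenase and its regulators. Without the date block 0 passed with edgeR, DESeq2 or limma-voom, and 2 had an unadjusted edgeR p under 0.05. PDK4, a kinase that inactivates pyruvate dehydrogenase, had the largest value of the list at 0.79 (SE 0.28, edgeR adjusted p = 0.20, or 0.076 with the date block), from 42 and 46 reads in strongly and 47, 85 and 88 in weakly adherent cells. With the weakly adherent library of 6 March left out PDK4 passed (edgeR adjusted p = 0.023). With the date block 1 of the 13 rose and 1 fell, where 6.20% and 5.28% of all genes did. PDP1, the phosphatase that activates pyruvate dehydrogenase, was at 88.6 and 102 CPM in strongly and 67.0, 98.2 and 83.3 CPM in weakly adherent cells, and it fell by 0.35 on the log2 scale with the block (edgeR adjusted p = 2.6e-05, 0.67 without). PDPR, the regulatory subunit that restrains that phosphatase, was at 42.8 and 47.7 CPM in strongly and 51.4, 56.7 and 58.0 CPM in weakly adherent cells. It rose by 0.27 with the block (edgeR adjusted p = 0.0063, 0.14 without).

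Of 15 genes of oxygen sensing and the HIF machinery 13 were tested, of which 1 rose and 0 fell, or 2 rose and 1 fell with the date block, beside 1.77% and 0.918% of all genes, and 6.20% and 5.28% with the block. EP300, an acetyltransferase that HIF recruits as a coactivator, rose: strongly adherent cells had a mean of 68.7 ± 5.40 CPM (SD, n = 2) and weakly adherent cells 93.8 ± 7.15 CPM (SD, n = 3), which is 0.45 ± 0.09 (SE) on the log2 scale (edgeR adjusted p = 0.018). Its relative CREBBP was at 0.30 (edgeR adjusted p = 0.084, or 2.2e-05 with the date block). Both have long coding sequences, of 7242 and 7326 bases, and after correction for coding length the values were 0.17 for EP300 (edgeR adjusted p = 0.46) and 0.01 for CREBBP (0.99). Length correction and block together gave EP300 an adjusted p of 0.040. Leaving out strongly adherent 6 March (0.18) or weakly adherent 15 March (0.063) ended the EP300 call as well. CITED2, which competes with HIF for these coactivators and is itself a HIF target, was at 79.7 and 100.7 CPM in strongly and 58.1, 72.8 and 79.9 CPM in weakly adherent cells, and it fell by 0.39 with the date block (edgeR adjusted p = 1.2e-06, 0.33 without). ARNT and VHL were at 0.01 and -0.08.

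Of 27 further HIF targets 1 rose and 0 fell without the block, beside 6 that rose and 3 that fell with it, where the shares of all genes were 1.77% and 0.918%, and 6.20% and 5.28% with the block. The median log2 fold change was 0.01. WSB1, part of a ubiquitin ligase, was at 59.9 and 62.2 CPM in strongly and 81.7, 81.2 and 71.3 CPM in weakly adherent cells (log2 fold change 0.35, SE 0.08, edgeR adjusted p = 0.047). Its call ended in limma-voom (0.052) and in edgeR with a filter of at least 1 CPM in 2 libraries. It also ended in edgeR without any 1 library other than the weakly adherent one of 15 March. The adjusted p was 0.092 and 0.17 without the weakly adherent library of 6 and of 12 March. With the block KDM4B, a histone demethylase like KDM3A, rose by 0.34 and the transcription factor NFIL3 by 0.32, and ANGPTL4, a secreted inhibitor of lipoprotein lipase, fell by 0.29 (edgeR adjusted p = 0.00089, 0.0046 and 0.038). The ANGPTL4 call ended with block and length correction together (-0.26, edgeR adjusted p = 0.083). The other 5 calls of the block fit, named here after their values were seen, were DDIT4, an inhibitor of mTOR signalling, at 0.39 (edgeR adjusted p = 5.8e-07), BHLHE40 at 0.29, CA12 at 0.42, the collagen cross-linking enzyme LOX at -0.33 (6.5e-05) and INSIG2 at -0.32. The CA12 value came from 15 March, with a log2 ratio of 0.79 in that pair and -0.01 in the pair of 6 March (edgeR adjusted p = 0.5 without the block). Like the members, these targets thus went both ways.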

How the data were processed

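RNA of weakly (3 libraries) and strongly adherent (2 libraries) MDA-MB231 cells was sequenced with a stranded kit as single-end reads of 50 bases, per the labels' protocols. HTSeq, STAR, cutadapt, FastQC, DESeq2 and the build hg19 come from the submitters' processing notes. Tool versions and the counting's use of strand are not stated there. The authors deposited raw read counts per gene and a table of normalized log2 values. Tested on the file, these deposited log2 values were log2(x + 1), with x the count over a size factor, and served only as an alternative. The 5 HTSeq summary entries that name no gene were left out. Libraries held 19630386 to 21707459 gene counts.

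The counts were fitted in edgeR 4.0.16 (R 4.3.3) with TMM scaling, filterByExpr (13297 genes kept) and the robust quasi-likelihood F test, 3 residual degrees of freedom and Benjamini-Hochberg adjustment over all tested genes. The calls use an adjusted p under 0.05, and levels are TMM-scaled CPM. The date in the sample titles was the block in an alternative fit. Deviations from the group's mean correlated between same-date libraries (r = 0.34 on 6 March and 0.20 on 15 March across genes). The strongly adherent libraries form a pair, so their deviations from its mean are exact opposites. The library of 12 March had r = -0.16 and 0.16 with them, which is the same value with its sign turned. The values of 6 and 15 March use that same strongly adherent contrast. They are therefore not separate evidence that libraries of a date share variation. The submitters do not say what a date shares. Other alternatives were DESeq2 1.42.0, limma-voom and limma (3.58.1), other filters and pseudocounts, removal of a trend with coding length (GENCODE 29, longest coding sequence by symbol, known for 88.5% of tested genes and for all 40 members) and leaving out each library. The steps were tested on simulated data.

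Replicates of a group differed beyond counting noise, with a chi-square of 7.49 to 12.6 per degree of freedom. The 40 members, the 5 further lists and the markers were chosen with earlier results of these data known. Values per library were given for members that passed in edgeR with or without the block, for the 2 with the smallest p in each role and for HIF1A, EPAS1, SLC2A1, HK2, LDHA, PDK1, CA9, VEGFA and NDRG1, and from each further list at most 4 genes that passed, by smallest p. Further values per library, among them those of ALDOA, GAPDH, PGK1, BNIP3L and EGLN1, were chosen after they were seen. The same holds for naming SLC16A1, PFKFB2, PDK4, ARNT, VHL, DDIT4, BHLHE40, CA12, LOX and INSIG2. Promoter windows came from RefSeq (GRCh38.p14), were matched by symbol and share no coordinates with the hg19 counts.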

Additional observations from a re-analysis of the deposited data

How the results depend on the processing

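Counts of calls depended on the date block. With the date as replicate block 825 genes were higher and 702 lower, against 235 and 122 without it, and the members went from 1 higher and 1 lower to 2 and 2. After correction for coding length 117 genes were higher, and 0 members were lower, since ADM no longer passed. With that correction and the block together, 603 genes were higher and 705 lower, and 2 members each way. With no filter on low counts 203 genes were lower and 2 members higher. Leaving out single libraries gave 82 to 238 genes higher, 34 to 103 lower, 0 to 1 members higher and 0 to 0 lower. Leaving out a strongly adherent library leaves 1, which is assumed to vary like the other group. The cause of these shifts was not tested.

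The median log2 fold change ranged from -0.08 to -0.02 for the enzymes, from -0.09 to 0.12 for the other HIF targets and from -0.20 to 0.02 for their difference (-0.05 with all libraries) when 1 library was left out. Without the 10 most abundant other genes the enzymes' share was 1.83% (weakly) and 1.89% (strongly adherent). Windows with ACGTG or GCGTG made up 68.2% of members' and 48.4% of all. PDK1 turned to 0.01 with the block and 0.03 with block and length correction. Over single libraries left out it ranged from -0.15 to 0.08, CA9 from -0.56 to 0.19, HIF1A from -0.0023 to 0.16, PFKFB4 from -0.0023 to 0.27 and SLC2A1 from -0.0015 to 0.22, none of them called. With 20 to 39 reads for CA9 and 33 to 48 for ALDOC, depth limits both.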
